A study of Mus musculus with 3 samples.

Results

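Adam1a, Nectin2, Dhh, Sox30, Mxi1 and H1fnt are 6 mouse genes of spermatogenesis, sperm function or growth control that the study tested or named for the testis histone variant TH2B in sperm. The genes were chosen by the presence of a TH2B peak, so that presence is given here as a description and was not tested. Every TH2B peak in each gene or within 20 kb of it was taken, which gave 6 of the 1179 TH2B peaks, 1 at each gene, and 0 of the 210 TH2A peaks. H1fnt is the older symbol of the gene now called H1f7.

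Mature sperm from the cauda epididymis of 8 to 12 week old BALB/c-129-E mice were the only cells examined, with no treated or mutant group. Native chromatin immunoprecipitation (ChIP without crosslinking) was done with an antibody against TH2B and with one against TH2A, and mononucleosomal DNA served as the Input. There was 1 library for each variant, made from 2 pooled reactions, and about 30 M read pairs of 150 bases were obtained for Input and TH2B and about 34 M for TH2A. The files hold the positions of peaks called against the Input, without heights or p-values, so that no replicate error or test exists for any value below, and the sperm label cannot be checked against marker genes in such lists.

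During spermiogenesis most histones of the male genome are replaced by protamines, and a small part of the genome stays wrapped in nucleosomes. TH2B is a testis form of H2B that enters chromatin in germ cells and takes part in the exchange of histones for protamines. The nucleosomes that remain in mouse sperm have been mapped mostly to sequences rich in G and C.

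The DNA under the 6 peaks is shown first, because each later value describes these stretches. All are in build GRCm38 (mm10) and are read 5′ to 3′ on the strand of the gene. They are chr5:121519882-121520181 (minus strand) for Adam1a, chr7:19732974-19733273 (minus) for Nectin2, chr15:98895789-98896088 (minus) for Dhh, chr11:45991599-45991811 (plus) for Sox30, chr19:53311630-53311929 (plus) for Mxi1 and chr15:98256484-98256783 (minus) for H1fnt. The Dhh and Sox30 stretches are whole peaks and the others are 300 bases of a longer peak. Capitals mark the binding sites of the study's ChIP-qPCR primers in the 5 stretches other than H1fnt (37 bases for Adam1a, whose product reached just past the peak). H1fnt had no primer pair among those used here, and its capitals mark every copy of GTCAAG, the most frequent word of 6 bases in that peak.
Adam1a: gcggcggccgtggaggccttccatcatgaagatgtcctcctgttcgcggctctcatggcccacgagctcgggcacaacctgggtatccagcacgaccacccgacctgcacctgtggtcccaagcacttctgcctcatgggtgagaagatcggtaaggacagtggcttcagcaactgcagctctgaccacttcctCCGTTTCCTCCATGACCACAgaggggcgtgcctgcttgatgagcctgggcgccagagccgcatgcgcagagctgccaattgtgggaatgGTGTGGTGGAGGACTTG
Nectin2: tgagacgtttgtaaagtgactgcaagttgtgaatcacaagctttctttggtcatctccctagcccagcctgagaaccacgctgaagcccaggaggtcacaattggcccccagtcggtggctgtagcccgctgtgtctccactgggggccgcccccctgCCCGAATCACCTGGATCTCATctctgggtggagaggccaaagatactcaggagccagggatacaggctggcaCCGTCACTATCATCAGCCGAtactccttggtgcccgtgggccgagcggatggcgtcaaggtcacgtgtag
Dhh: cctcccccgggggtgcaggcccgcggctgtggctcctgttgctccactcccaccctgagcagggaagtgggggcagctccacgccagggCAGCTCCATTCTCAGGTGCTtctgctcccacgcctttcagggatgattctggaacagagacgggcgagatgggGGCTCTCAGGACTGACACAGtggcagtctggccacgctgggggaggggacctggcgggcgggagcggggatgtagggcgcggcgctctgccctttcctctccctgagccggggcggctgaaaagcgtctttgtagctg
Sox30: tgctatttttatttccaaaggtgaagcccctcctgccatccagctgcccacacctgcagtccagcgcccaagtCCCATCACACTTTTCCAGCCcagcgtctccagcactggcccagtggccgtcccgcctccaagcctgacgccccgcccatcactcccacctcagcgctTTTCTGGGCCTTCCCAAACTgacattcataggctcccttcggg
Mxi1: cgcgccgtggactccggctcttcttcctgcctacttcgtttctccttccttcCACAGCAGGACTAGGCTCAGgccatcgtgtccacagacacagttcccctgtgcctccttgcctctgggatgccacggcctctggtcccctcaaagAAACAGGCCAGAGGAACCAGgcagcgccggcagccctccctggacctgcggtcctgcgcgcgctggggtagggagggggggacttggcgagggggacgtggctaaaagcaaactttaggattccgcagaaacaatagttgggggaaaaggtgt
H1fnt: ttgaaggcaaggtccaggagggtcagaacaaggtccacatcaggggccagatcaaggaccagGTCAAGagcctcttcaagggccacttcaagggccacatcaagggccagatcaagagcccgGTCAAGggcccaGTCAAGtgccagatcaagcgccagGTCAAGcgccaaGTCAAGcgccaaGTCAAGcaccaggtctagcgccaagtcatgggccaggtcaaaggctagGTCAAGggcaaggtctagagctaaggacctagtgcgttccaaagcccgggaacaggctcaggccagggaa

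All 6 peaks lay inside their gene. For comparison, 6.61% of the 21938 protein-coding genes on assembled chromosomes had a TH2B peak in or within 20 kb of them, and 2.89% had one that overlapped the gene. Nothing is read from that contrast, since the TH2B list chose the genes. Coding exons held 4 of the 6 peaks (Adam1a, Nectin2, Sox30, H1fnt) and introns the other 2 (Dhh, Mxi1), and none touched an untranslated region. Among all 1140 TH2B peaks on assembled chromosomes, 258 (22.6%) overlapped a coding exon and 624 (54.7%) a protein-coding gene. The 6 peaks all lay inside genes, unlike the whole set, so nothing is read from the contrast with these shares either. The distance from the peak centre to the nearest transcription start site (TSS) of the own gene ran from 660 bp (H1fnt) to 16409.5 bp (Nectin2), always downstream of that TSS, with a median of 2285.75 bp. A TSS of the own or another gene was within 5 kb of 4 peaks, and of 68.7% of all TH2B peaks. That share counts the start of every annotated transcript of any gene type. The paper, which used the tool GREAT for distances to the TSS, reports a lower share within 5 kb. The reason for the difference was not tested. No peak covered the TSS of its gene.

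**Figure D1:**
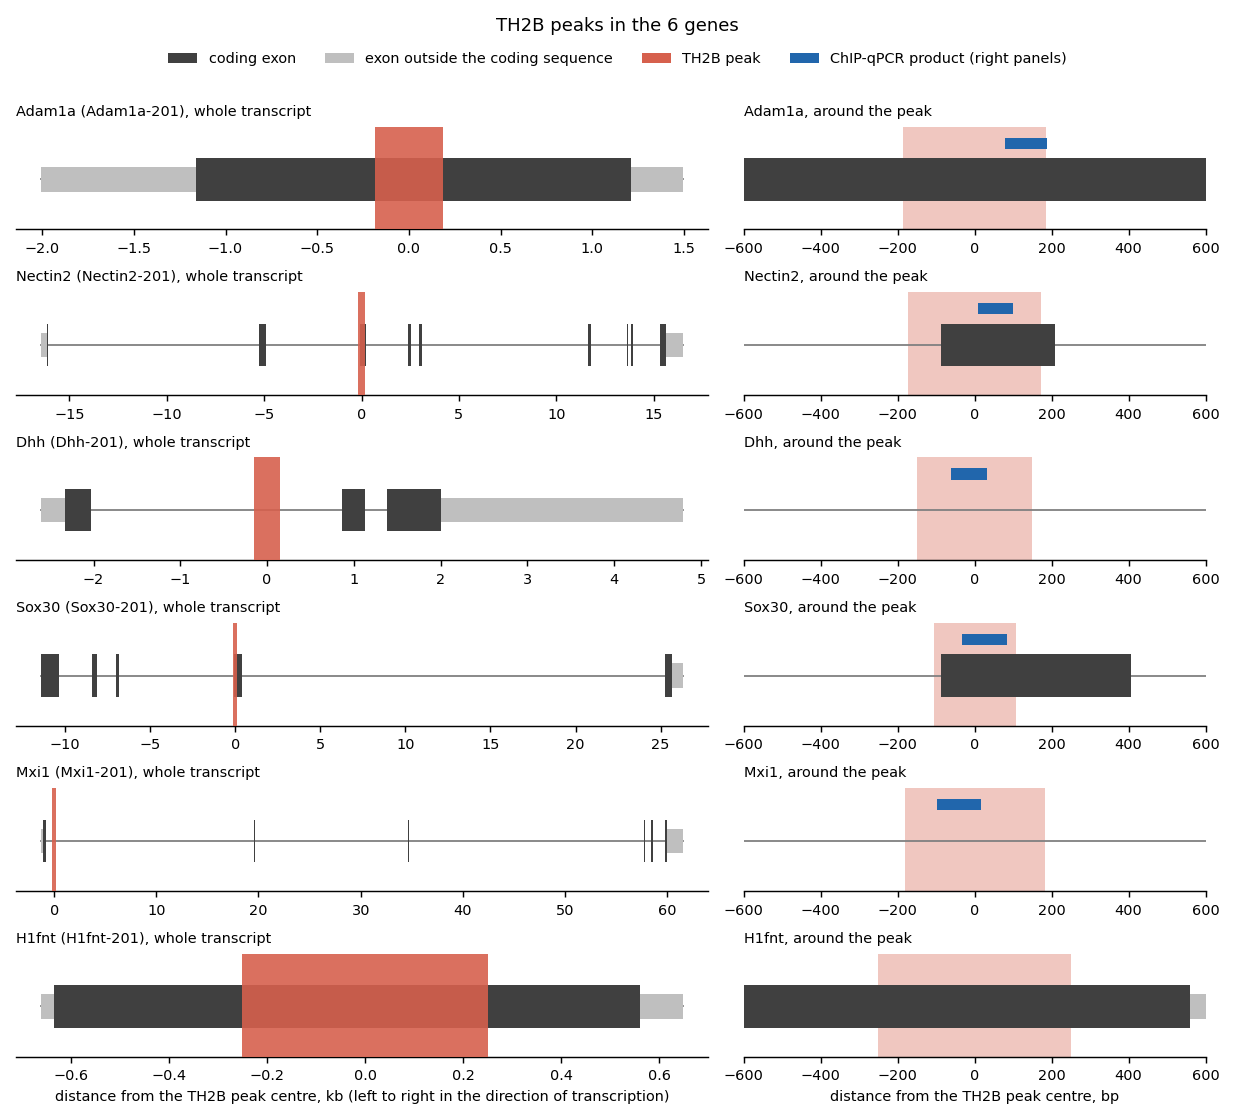
Each row shows 1 gene, with the transcript named in the title drawn in the direction of transcription and the x axis giving the distance from the TH2B peak centre (kb for the whole transcript on the left, bp on the right). Dark boxes are coding exons, light boxes are exon parts outside the coding sequence, red is the TH2B peak and blue the ChIP-qPCR product. The peaks of Adam1a and H1fnt sit within 1 long coding exon, those of Nectin2 and Sox30 across the 5′ edge of a coding exon, and those of Dhh and Mxi1 in intron 1.

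Adam1a encodes a membrane protein of the ADAM metalloprotease family that acts in testicular germ cells as a subunit of fertilin, and male mice without it are infertile. Its TH2B peak was at chr5:121519882-121520252 and spanned 371 bp, wider than 90.1% of the TH2B peaks. The whole peak was coding sequence of the shorter Adam1a transcript, a single exon of 3496 bp, 2004 bp downstream of its TSS. It covered coding bases 977 to 1347, or codons 326 to 449 of 791, which is 15.6% of the coding sequence. The bases of the zinc-binding site shared by metalloproteases (codons 370 to 380, found by its pattern in the translated sequence) lay wholly within the peak, at chr5:121520089-121520121. In the longer transcript, which has 15 exons, the same bases were part of intron 14, 25415 bp from the TSS. They were also intronic to Tmem116 on the other strand and to Gm42878 on the same strand. The nearest TSS of another gene was that of Mapkapk5, a stress-activated protein kinase, at 5765 bp.

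The Adam1a peak was the only member peak with a near-identical copy elsewhere in the genome. The copy lay at chr5:121501730-121502100, in the coding sequence of the neighbouring gene Adam1b, which encodes a related fertilin subunit carried on sperm. It matched the peak at 99.5% of bases, with 2 differences in 371 bp. Counted from 1 at the 5′ end of the peak on the strand of the gene, and with the Adam1a base first, these were T278C and C292T. The longest stretch with no difference was 277 bp, longer than a read of 150 bases, and the matching block ran on past the peak to 1205 bp with 4 mismatches and no gap. The Adam1b copy also held the zinc-binding site, at codons 338 to 348 of 806. No TH2B peak was called on it, and the nearest was the Adam1a peak itself, 17782 bp away. Within the peak the assignment to Adam1a therefore rested on 2 bases of the C57BL/6J reference and is given as uncertain, and the reads of either place were not tested. A copy of this kind (95% identity or more, across 80% or more of the peak) was found for 283 (24.8%) of all TH2B peaks. The other 5 peaks had no match elsewhere even at 80% identity over 50% of the peak.

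Nectin2 encodes an immunoglobulin-like adhesion molecule of the junctions between Sertoli cells and spermatids. The peak, at chr7:19732951-19733296, was 346 bp wide and crossed from intron 2 into exon 3 of 9. It held 85 bp of the intron and 261 bp of the 297-bp exon, all of them coding (codons 151 to 238 of 530, 16.4% of the coding sequence). This was the peak farthest from a TSS of its gene, at 16409.5 bp, close to the middle of the gene (51.3% of the way along it). The TSS of Tomm40, a subunit of the mitochondrial import pore, was nearly as close, at 17685.5 bp.

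Sox30 encodes a transcription factor of the SOX family that acts on the meiotic and postmeiotic gene programme of the testis. The peak at chr11:45991599-45991811 was the narrowest of the 6, at 213 bp, which is wider than 31.3% of all TH2B peaks. It began 20 bp before exon 4 of 5 and covered 193 bp of that 493-bp exon, or codons 492 to 556 of 782 (8.23% of the coding sequence). The HMG box, with which SOX proteins bind DNA, began at codon 368, in an earlier exon at chr11:45983366-45983383, and was thus outside the peak. The peak centre was 11395 bp from the TSS of Sox30, and the next gene, Thg1l, had its TSS at 36211 bp.

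H1fnt encodes a linker histone of spermatids that is needed for normal chromatin condensation. Its peak, at chr15:98256383-98256883, was the widest of the 6, at 501 bp, and wider than 97.5% of the TH2B peaks. The gene is 1 exon of 1308 bp, and the peak took 42.0% of its coding sequence (codons 128 to 295 of 398), 660 bp from the TSS. The nearest other gene was the olfactory receptor gene Olfr286, with its TSS at 22183 bp.

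The H1fnt peak was a degenerate tandem repeat. In it, 50.9% of the bases equalled the base 12 positions further on, 58.3% the base 24 positions on and 56.1% the base 48 positions on. The word GTCAAG occurred 7 times, as the capitals above show. The best offset of the other 5 peaks gave 33.2% (Nectin2) to 39.3% (Sox30), and the median over all TH2B peaks was 35.2%. A self-match as high as that of H1fnt was seen in 91 of the 1140 TH2B peaks, so that 92.0% had a lower one. The repeat did not make the stretch match other places, and the reference masked none of its bases as a repeat.

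**Figure D2:**
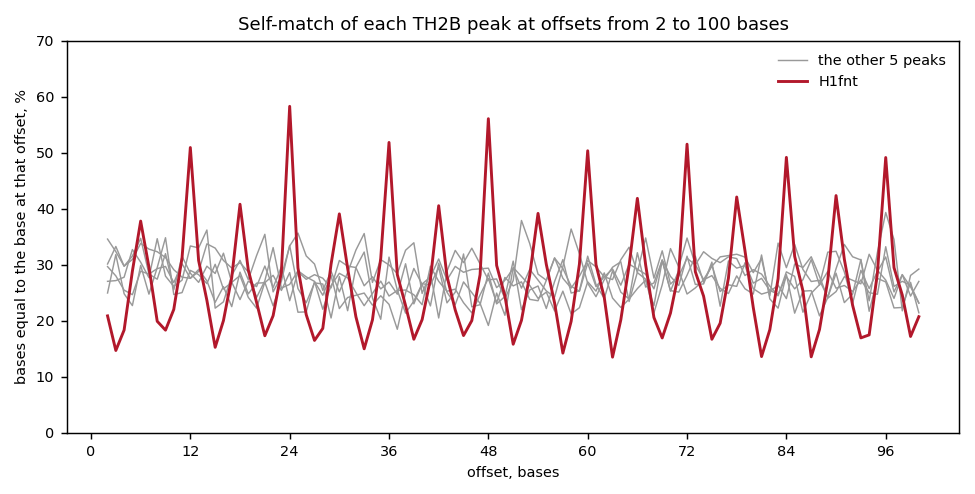
The x axis gives an offset from 2 to 100 bases and the y axis the percent of bases of a TH2B peak that equal the base at that offset. H1fnt (red) rises at every multiple of 12 bases, with its maximum of 58.3% at 24, while the other 5 peaks (grey) stay at or below 39.3%.

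The introns of Dhh and Mxi1 held the remaining peaks. Dhh encodes Desert hedgehog, the ligand by which Sertoli cells signal to Leydig and peritubular cells. Its peak at chr15:98895789-98896088 was 300 bp wide and lay in intron 1 (2895 bp), 1882 bp after exon 1 and 715 bp before exon 2. This was the only peak for which the nearest TSS was that of another gene. Rhebl1, a gene for a Rheb-like GTPase, had its TSS 1398.5 bp from the peak centre, against 2567.5 bp for Dhh.

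Mxi1 encodes a partner of MAX that opposes MYC at E-box sequences. The peak at chr19:53311598-53311961 was 364 bp wide and lay in intron 1 (20377 bp), 625 bp after exon 1 of the transcript with the nearest TSS and 1261.5 bp downstream of that TSS. Of the 9 annotated Mxi1 transcripts, 1 starts upstream of the peak and 8 downstream of it. The nearest of the latter put the peak at -1286.5 bp, and the TSS of the principal transcript put it at -17633.5 bp, the minus sign meaning upstream. The nearest TSS of another gene was that of AC133451.2, at 13945.5 bp, and the nearest of another protein-coding gene that of Gm10197, at 59986.5 bp.

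No TH2A peak lay in or within 20 kb of any of the 6 genes, where 0.232% of all protein-coding genes had one. The nearest TH2A peak was 7661341 bp from the Mxi1 peak, 9738117 bp from the Nectin2 peak, 15629069 bp from the Adam1a peak and 42791538 bp from the Sox30 peak. Chromosome 15, with Dhh and H1fnt, held no TH2A peak. Of all TH2B peaks, 13.7% had a TH2A peak within 20 kb.

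Each of the 6 peaks also stood apart from other TH2B peaks. None had another TH2B peak within 100 kb, which was also the case for 712 (62.5%) of the TH2B peaks. The distance to the next TH2B peak was 207543 bp for Nectin2, 533654 bp for Adam1a, 2458889 bp for Mxi1 and 3802148 bp for Sox30. The Dhh and H1fnt peaks were each other's nearest, 638906 bp apart on chromosome 15. In width, 5 of the 6 were above the median of all TH2B peaks, 236 bp, and Sox30 was below it.

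The 6 peaks were rich in G and C, as were TH2B peaks in general. The share of G and C was 59.1% in Mxi1, 59.7% in H1fnt, 60.1% in Nectin2, 60.6% in Sox30, 61.5% in Adam1a and 67.7% in Dhh. The median of all TH2B peaks was 59.8%, which 4 of the 6 passed, and Dhh was above 98.0% of them. Every peak had a higher share than the 1 kb on each side of it, as had 95% of all TH2B peaks. The step was widest for Sox30, whose flanks held 41.1%, and narrowest for Mxi1, whose flanks held 58.0%. The Nectin2 and Sox30 peaks cross from an intron into a coding exon, so their flanks include intron. The whole coding sequence held 59.5% in Nectin2, 59.8% in Sox30 and 58.5% in H1fnt, close to their peaks, and 52.7% in Adam1a. How much of a step comes from the change between exon and intron was not tested. Upstream of the Nectin2 peak the share fell to 12% in the window of 100 bp centred at 550 bp from the peak centre, and upstream of the Sox30 peak to 24% at 450 bp.

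**Figure D3:**
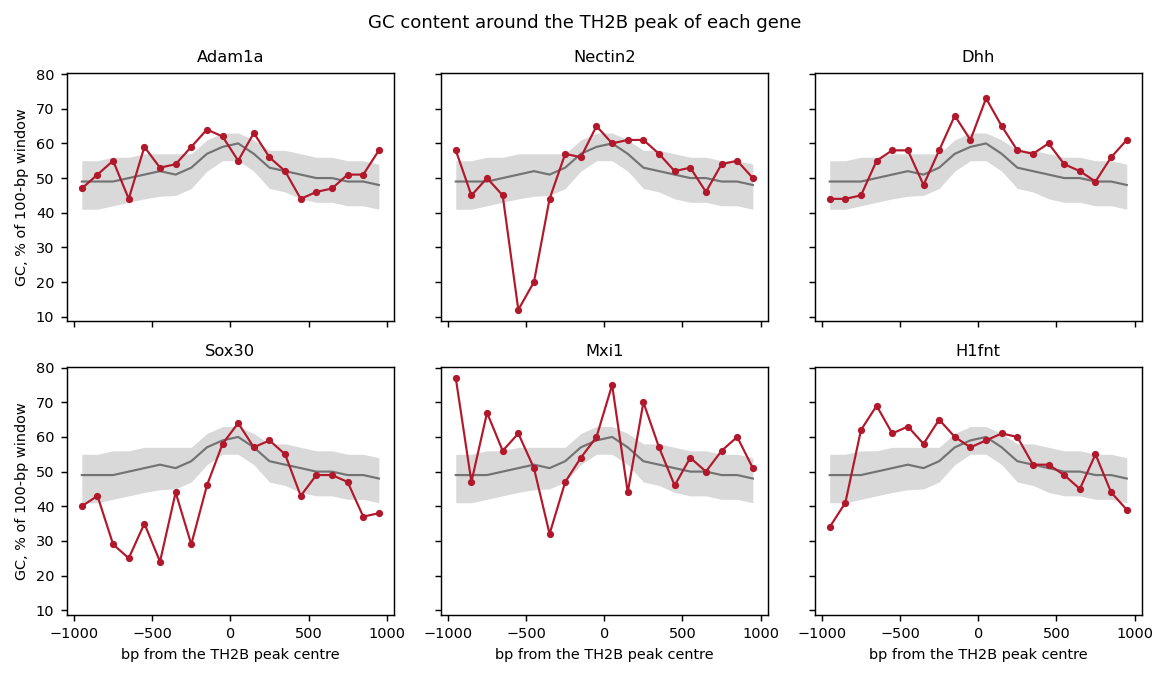
The x axis gives the distance in bp from the TH2B peak centre, in the direction of transcription, and the y axis the percent of G and C in windows of 100 bp. Red points are the gene named above each panel, the grey line and band are the median and the quartiles of all TH2B peaks (in genome direction), and Nectin2 and Sox30 show windows as low as 12% and 24% upstream of the peak.

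CpG dinucleotides, the sites of DNA methylation in mammals, were less even. The ratio of observed to expected CpG was 0.629 in Adam1a, 0.5995 in Mxi1, 0.546 in Nectin2, 0.499 in Dhh, 0.485 in Sox30 and 0.315 in H1fnt, against a median of 0.487 over all TH2B peaks. Only Adam1a met the usual limits of a CpG island (G and C above 50%, ratio above 0.6, at least 200 bp), which 407 (35.7%) of the TH2B peaks met. The ratio was above that of the flanks in 4 of the 6 peaks. In Mxi1 it was below the 0.710 of the flanks, and in H1fnt below the 0.367 of the flanks. No base was masked as a repeat in Adam1a, Dhh, Sox30 and H1fnt, 6.65% of bases were in Nectin2 and 12.4% in Mxi1. Of all TH2B peaks, 47.4% held no masked base.

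**Figure D4:**
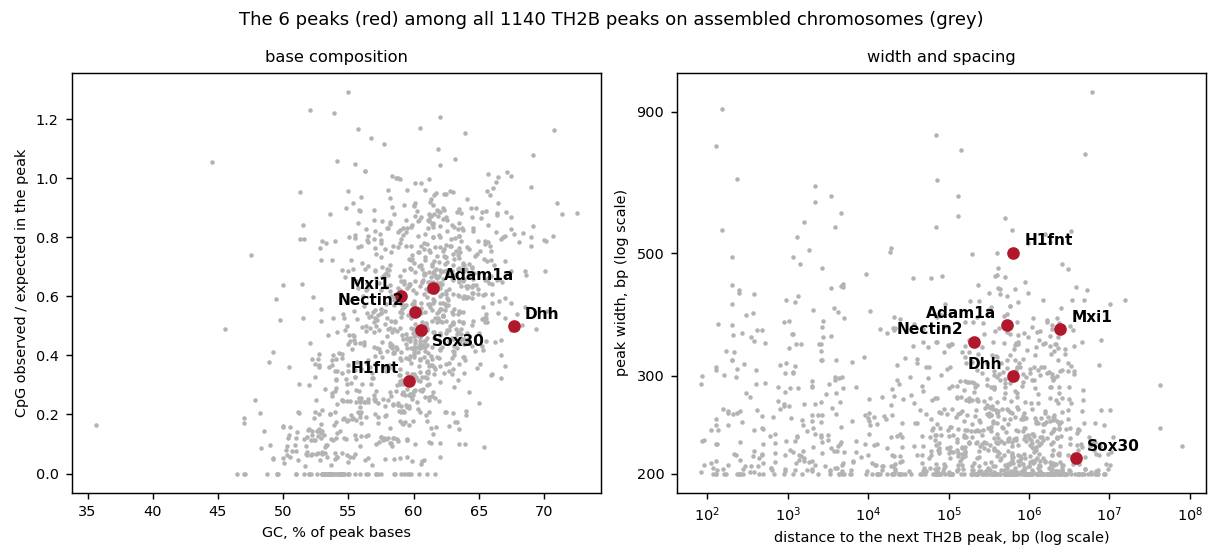
The left panel plots the ratio of observed to expected CpG against the percent of G and C of each TH2B peak, and the right panel the peak width against the distance to the next TH2B peak in bp (both log scales). Grey points are the 1140 TH2B peaks on assembled chromosomes and red points the 6 genes, of which Dhh stands to the right in composition at 67.7%, H1fnt is widest at 501 bp and none has a neighbour within 100 kb.

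Sequence motifs were searched on both strands in the central 200 bp of each peak. The full cAMP response element (CRE, TGACGTCA) was in none of the 6, and in 0.789% of all TH2B peaks. Its core TGACG, which is part of the full element, was in 2 (Nectin2 and Sox30), and in 14.6% of all. The GC box GGGCGG was in 3 (Nectin2, Dhh and Sox30), and in 23.6% of all. The E-box CACGTG was in none, and in 4.74% of all. The SOX core ACAAT was in 1 (Nectin2), and in 14.5% of all. These are matches of letters in a window of fixed width. They do not show binding. Over the whole peak, CACGTG was in Nectin2 alone, at 1 site outside that window near the 3′ end of the stretch printed above. The other motifs were counted in the central window only. Sites elsewhere in a peak, such as ACAAT and GGGCGG in Mxi1, are thus not in these counts.

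The primer pairs of the study placed the ChIP-qPCR assays on the same peaks. With no mismatch, each of the 5 pairs gave 1 product in the assembled chromosomes, and each product overlapped the TH2B peak of its gene. The paper states that these primers were made for the MACS2 peaks, so the overlap follows from their design and is given as a description. Products were 92 bp for Nectin2 (chr7:19733024-19733115), 93 bp for Dhh (chr15:98895907-98895999), 109 bp for Adam1a (chr5:121519879-121519987), 115 bp for Mxi1 (chr19:53311682-53311796) and 117 bp for Sox30 (chr11:45991672-45991788). Those of Nectin2, Dhh, Mxi1 and Sox30 were wholly inside the peak. That of Adam1a lay at the 3′ edge, with 106 of its 109 bp (97.2%) in the peak and its centre 134 bp from the peak centre, while the other 4 centres were within 54 bp. A product took from 26.6% (Nectin2) to 54.9% (Sox30) of the peak.

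The Adam1a pair was also the only pair with another product when up to 2 mismatches were allowed. That product, again of 109 bp, lay at chr5:121501727-121501835 in the Adam1b copy, where 1 primer matched in full and the other had 1 mismatch. Of the 2 bases that differ between peak and copy, T278C fell in a primer site and C292T between the primers. How much DNA of either place such a product holds was not tested. Of the TH2B primer pairs for other genes, that for Hoxa9, a homeobox gene, gave a product of 97 bp wholly inside a TH2B peak, and that for Rec8, a meiotic cohesin subunit, 1 of 117 bp with 108 bp (92.3%) inside.

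The related genes of each member were examined from 9 lists, again with 6.61% of protein-coding genes as the background. Outside the 6, 12 of 153 listed genes (7.84%) had a TH2B peak in or within 20 kb, at 13 distinct peaks, and none of the 159 listed genes had a TH2A peak there. Among the 12 genes, Adam1b was counted through the Adam1a peak, which is a member peak and is among the 13. The share of the other listed genes was thus close to that of all genes. The counts for each list below leave out the members, which were chosen for their TH2B peak, except where a member is named.

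In the hedgehog pathway, 1 of the 16 genes other than Dhh had a TH2B peak in or within 20 kb, Gli1, the transcription factor that the pathway switches on. The Gli1 peak, chr10:127340676-127340875, was 200 bp wide and lay in an intron, 816.5 bp upstream of the nearest Gli1 TSS. Of the 10 linker histones other than H1fnt, 1 had a peak, Hist1h1b (a replication-dependent H1), and this peak, chr13:21780170-21780432, was also in the coding exon, 324 bp from the TSS. In the MYC, MAX and MXD network, 1 of the 14 genes other than Mxi1 had a peak, Mga (a MAX partner that represses germ cell genes in stem cells), with the peak centred 26 bp upstream of a TSS at chr2:119897101-119897457.

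Of the 19 SOX genes other than Sox30, 4 had a TH2B peak in or within 20 kb, and none of these peaks was inside the gene. Peaks lay 1308 bp from Sox6, 3875 bp from Sox18, 7573 bp and 10445 bp from Sox2, and 15662 bp from Sox15. The TSS nearest to the peak was that of the SOX gene itself only at Sox18 and Sox30. It was that of 1110004F10Rik for Sox6 (547 bp) and Eif4a1 for Sox15 (77.5 bp). For Sox2 it was that of Gm42692 (573.5 bp) and Gm42693 (1283.5 bp). With Sox30 included, the SOX count was 5 of 20 at 20 kb and 3 at 5 kb. Of the 28 ADAM proteases of testis and sperm other than Adam1a, 1 was counted, Adam1b, through the Adam1a peak, 16447 bp away, and this count was lost at 5 kb. Of the 15 nectins and adhesion partners other than Nectin2, 0 had a peak at 20 kb. With Nectin2 included, that list had 1 of 16 at 20 kb and 2 at 50 kb.

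The last lists held genes that act in spermatids or in the somatic cells of the testis. Protamines, transition proteins and testis core histones had 0 of 17 at 20 kb and 1 at 50 kb. These are counts of called peaks. The paper describes significant TH2B read coverage, relative to Input, for Prm1, Prm2, Prm3 and Tnp2, and coverage was not examined here. Of the 13 transcription regulators of spermatids other than Sox30, 2 had a peak, Spata24 (2 bp from its TSS) and Ybx2, which encodes a germ cell RNA-binding protein. The peak counted for Ybx2 was 13997 bp outside the gene, and its nearest TSS was that of Eif5a, at 282.5 bp. Of 22 Sertoli and Leydig cell genes, 2 had a peak at 20 kb and 1 at 5 kb. They were Inhba (an activin and inhibin subunit, 599 bp from the TSS) and Insl3 (a Leydig cell hormone). The peak counted for Insl3 was 12562 bp outside the gene, and its nearest TSS was that of Jak3, at 36.5 bp.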

How the data were processed

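The authors used Trimmomatic 0.36 to trim the paired-end reads and BWA for alignment to mm10, handled the alignments with SAMtools and called peaks of each ChIP library against the Input with MACS2 2.1.3 at a p-value cutoff of 0.05. The deposited lists give chromosome, start, end and width of each peak, 1-based with both ends included, for TH2B (1179) and TH2A (210), and 1140 of the TH2B peaks were on assembled chromosomes. The Input has no peak list. About 30 M pairs (34 M for TH2A) from 1 pooled library a variant give no replicate error, so no test was run.

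Peaks were set against GENCODE M21 genes and GRCm38.p6 sequence with Python 3.11.15, numpy 2.4.6 and pysam 0.24.0. Distances run between the centre of a peak and the closest annotated TSS of the gene (any transcript), positive downstream. Copies were sought with BLAST 2.17.0 (at least 95% identity over 80% of the peak), and primers by a scan of both strands with numba 0.67.0 (product up to 1000 bp), which was tested on simulated sequence, as was the search for repeats. The reference is C57BL/6J, another strain than that of the samples.

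The members and lists were chosen with earlier results of these data known. Named genes are the 6 members, the gene of the nearest other TSS, genes the peak overlaps, listed genes with a TH2B peak in or within 20 kb, and Hoxa9 and Rec8 as other primer targets. For the peak of a listed gene, the gene of the nearest TSS is also named where it is another gene. The principal Mxi1 transcript was named after its values were seen. Lists were hedgehog pathway, nectins and partners, ADAM proteases, SOX factors, MYC, MAX and MXD network, linker histones, protamines with transition proteins and testis core histones, spermatid regulators, and Sertoli and Leydig cell genes.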

Additional observations from a re-analysis of the deposited data

How the results depend on the processing

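The count of 6 genes with 1 TH2B peak each was the same with windows of 5 kb and 50 kb, with overlap only, and with peaks under 1000 bp apart merged. The count of 0 TH2A peaks held up to 1000 kb. The 4 peaks in coding exons, the 5 genes that hold the TSS nearest to their peak, the 5 primer products on a peak (4 wholly inside) and the 1 peak with a near-identical copy were the same, or within 1.5 times, under each alternative tried. The principal transcript was not tried for the place of a peak, and in that of Adam1a the peak is intronic. The share of protein-coding genes with a TH2B peak, 6.61% at 20 kb, was 4.21% at 5 kb and 10.6% at 50 kb. Counts of listed genes, members included, changed by over 1.5 times in 5 of the 9 lists. At 50 kb the nectins went from 1 to 2 and the protamine list from 0 to 1. At 5 kb the SOX genes went from 5 to 3, the ADAM proteases from 2 to 1 and the Sertoli and Leydig genes from 2 to 1, and with overlap only these 3 lists had 1 each. Of 30 alternative distances to the TSS, 29 kept their direction. With the principal transcript, an alternative chosen after seeing the data as was the RefSeq gene start, the Mxi1 distance became -17633.5 bp (upstream), and that of Adam1a 25415 bp in place of 2004 bp. A stricter threshold was not run, because the lists hold no score. No paired analysis was possible because each variant has 1 library. Depth, peak height and error between samples cannot be judged from positions, and a gene with no peak may still hold TH2B below the caller's cutoff.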
